A study of Mus musculus with 12 samples.

Results

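The 10 genes Il1b, Il1a, Il18, Il1rn, Nlrp3, Aim2, Pycard, Casp1, Casp4 and Gsdmd encode the core of the inflammasome and interleukin-1 pathway. They were chosen by symbol among the 34745 genes of the deposited table, and each symbol was found once. Their read counts were compared in femoral marrow of 12 male mice of the outbred ICR strain, 1 library per mouse, in 4 groups of 3. The normal group received saline only. Model mice were given saline by mouth and, on days 5 to 7, daily intraperitoneal cyclophosphamide (80 mg/kg), an alkylating drug that depletes the marrow. QJSB mice were given the same cyclophosphamide together with Qi-Jing-Sheng-Bai granule, a herbal preparation, by mouth at a daily 3 g/kg for 1 week. Leucogen mice were likewise given cyclophosphamide, with oral leucogen, a clinical drug for low leucocyte counts, at a daily 20 mg/kg for 1 week. No group received a drug without cyclophosphamide, so QJSB and leucogen can be described only in mice that were given it. The age of the mice was not given in the sources used here.

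Inflammasomes are protein complexes that form in the cytosol of myeloid cells after a sensor such as NLRP3 or AIM2 meets a danger signal or foreign DNA. The adaptor ASC, the product of Pycard, links the sensor to caspase-1, which matures the precursors of interleukin-1β and interleukin-18 and cleaves gasdermin D, whose fragment opens pores in the plasma membrane. In bone marrow the pathway belongs mainly to neutrophils, monocytes and macrophages, and interleukin-1 is known to drive myeloid output after injury.

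Library totals ran from 11172547 to 18545198 counts, and each member had at least 7 counts in every library. Levels are given as CPM, the read count scaled to a common library total with TMM factors. A member was called where edgeR gave an absolute log2 fold change over 0.585 (1.5-fold) with a Benjamini-Hochberg adjusted p under 0.05 over all genes tested. Marrow markers of B cells, erythroid cells, neutrophils, monocytes and macrophages were all present in the normal libraries. The cell makeup of the libraries differed widely with cyclophosphamide. The 10 erythroid markers summed to 15715 to 19655 CPM in normal and 171 to 1789 CPM in model, and the 10 mature B cell markers to 2246 to 2326 CPM and 188 to 259 CPM. Model 1 and QJSB 1 stood apart from the other libraries of their groups, with summed late neutrophil markers of 5010 and 7673 CPM against at least 12575 CPM in the others, and summed stroma markers of 821 and 972 CPM against at most 319 CPM. In bulk marrow, fewer cells of a type and less RNA per cell cannot be told apart, which holds for every difference below.

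Il1b and Il1a lie side by side on chromosome 2 (GRCm38, Il1b at 129364570 to 129371139 and Il1a at 129299610 to 129309972, both on the minus strand), with 54598 bases between them. Casp1 and Casp4 are neighbours on chromosome 9 (5298517 to 5307265 and 5308828 to 5336783, both on the plus strand), with 1563 bases between them. The promoters of these neighbours are shown because Il1b and Il1a moved apart in the data while Casp1 and Casp4 both rose after cyclophosphamide. Each window holds the 250 bases before and the first 50 bases of a RefSeq transcript on GRCm38.p6 and reads 5′ to 3′ on the strand of the gene. Capitals mark matches to TATAAA (the TATA box) and GAGGAAG (the core bound by PU.1, the myeloid lineage factor).
Il1b, chr2:129371090-129371389, minus strand: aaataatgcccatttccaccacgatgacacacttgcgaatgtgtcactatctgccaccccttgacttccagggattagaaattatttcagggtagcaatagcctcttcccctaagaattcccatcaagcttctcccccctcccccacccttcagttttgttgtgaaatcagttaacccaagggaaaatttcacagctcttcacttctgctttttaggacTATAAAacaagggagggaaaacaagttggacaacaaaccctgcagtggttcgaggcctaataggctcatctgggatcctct
Il1a, chr2:129309923-129310222, minus strand: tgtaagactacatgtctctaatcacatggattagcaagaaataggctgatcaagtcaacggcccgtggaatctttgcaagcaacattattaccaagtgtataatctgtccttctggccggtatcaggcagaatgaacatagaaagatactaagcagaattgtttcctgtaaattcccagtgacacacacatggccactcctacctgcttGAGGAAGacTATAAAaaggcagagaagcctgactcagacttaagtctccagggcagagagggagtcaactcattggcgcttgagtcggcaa
Casp1, chr9:5298267-5298566, plus strand: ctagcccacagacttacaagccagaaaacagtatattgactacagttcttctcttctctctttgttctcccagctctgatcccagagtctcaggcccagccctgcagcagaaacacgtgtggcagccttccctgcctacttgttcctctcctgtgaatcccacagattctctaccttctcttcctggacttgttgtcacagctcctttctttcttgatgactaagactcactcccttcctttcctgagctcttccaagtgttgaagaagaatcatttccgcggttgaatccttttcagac
Casp4, chr9:5308599-5308898, plus strand: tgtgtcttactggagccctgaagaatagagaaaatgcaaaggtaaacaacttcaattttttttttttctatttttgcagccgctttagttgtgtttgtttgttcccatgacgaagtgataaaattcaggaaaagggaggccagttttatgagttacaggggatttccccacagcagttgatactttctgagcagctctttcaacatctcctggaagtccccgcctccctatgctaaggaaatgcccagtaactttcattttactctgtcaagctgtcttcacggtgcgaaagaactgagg
The letters TATAAA stood at -31 to -26 in Il1b and at -32 to -27 in Il1a, counted from the start site. Il1a also held GAGGAAG at -41 to -35, next to its TATA box. Neither Casp1 nor Casp4 held these letters, GAAANNGAAA (the interferon-stimulated response element) or TTCNNNGAA (the GAS element of STAT factors) on either strand. Over all 32817 windows in the table, 13.6% held TATAAA, 13.6% GAGGAAG, 3.43% GAAANNGAAA and 8.29% TTCNNNGAA. Promoters were found for 9 of the 10 members, all but Gsdmd. Aim2 and Pycard each held GAGGAAG in 1 window, at -113 to -107 and, on the opposite strand, at -43 to -37. A window of Nlrp3 held it at -36 to -30 and, on the opposite strand, at -130 to -124. TATAAA on the opposite strand was found at -175 to -170 in Il18. In Il1rn it was found at 14 to 19 of the window that starts at 24345121. The windows of Il1rn that start at 24336610 and 24345041 did not hold it. Casp4 has a further window, not shown, which starts at 5308610 and held none of these letters.

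Which members changed with cyclophosphamide was asked of model against normal. In all, 6 members passed the cutoff. The cytokine gene Il1b, the antagonist gene Il1rn and the sensor gene Nlrp3 fell, whereas the caspase genes Casp1 and Casp4 and the pore-former gene Gsdmd rose. The 3 members called higher stand beside 16.1% of the 14752 genes tested that were called higher, and the 3 called lower beside 19%. The median log2 fold change of the 10 members was 0.43, against 0.02 for all genes tested. Of the remaining 4 members, Il18, Il1a, Pycard and Aim2 did not pass.

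**Figure D1:**
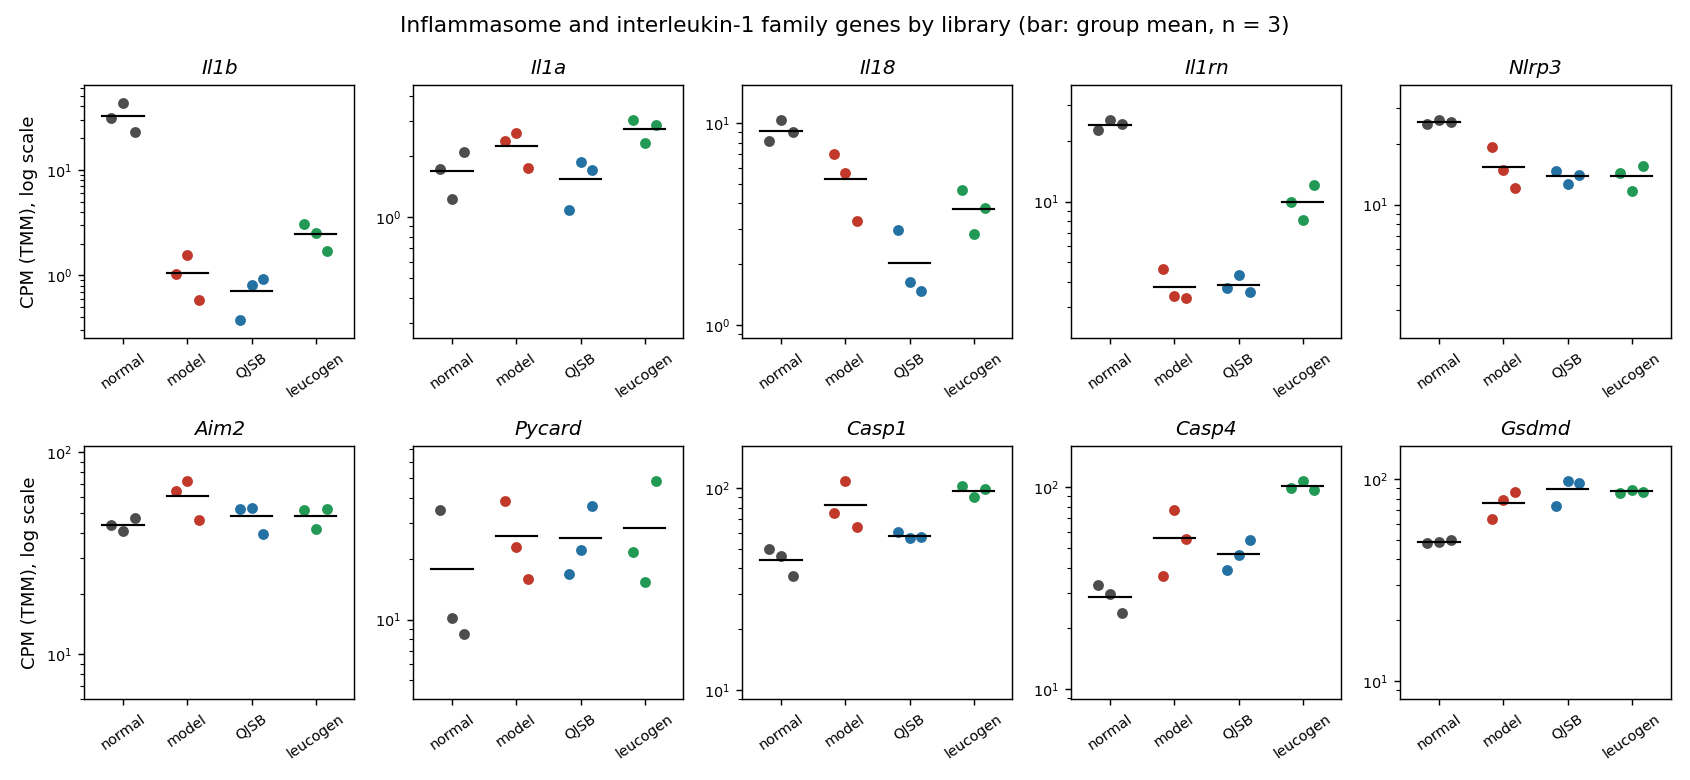
Level of each member in each library, as CPM on a log axis, for the normal, model, QJSB and leucogen groups (points are mice and bars are group means, n = 3). Il1b and Il1rn drop from the normal to the other groups, Casp4 is highest in the 3 leucogen libraries, and Pycard spreads widely within every group.

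Il1b encodes interleukin-1β, the main secreted pyrogenic cytokine of the family. Its level was 31.1, 42.7 and 22.7 CPM in normal 1, 2 and 3, and 1.04, 1.56 and 0.58 CPM in model 1, 2 and 3. Every model library lay far below every normal library. The mean fell from 32.2 ± 10.0 to 1.06 ± 0.487 CPM (SD, n = 3 each), a log2 fold change of -4.94 ± 0.38 (SE, adjusted p = 4.9e-05) and the largest change among the members. The model counts behind it were only 10 to 22 reads per library, so counting error weighs on their level. Il1bos, an antisense gene that overlaps Il1b, had 4 to 15 counts in the 12 libraries.

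Il1a encodes interleukin-1α, which is active without cleavage by caspase-1 and acts as an alarm signal of damaged cells. It was low throughout, at 1.73, 1.23 and 2.11 CPM in normal and 2.37, 2.62 and 1.75 CPM in model. The groups overlapped, and the log2 fold change of 0.40 ± 0.34 did not pass (adjusted p = 0.38). The ratio of Il1b to Il1a reads within a library, in which the library total cancels, was 17.9, 34.8 and 10.7 in normal and 0.439, 0.595 and 0.333 in model. Il1b reads thus outnumbered Il1a reads in each normal library and were fewer in each model library. The exact two-sided permutation test of this ratio gave p = 0.1, the smallest that 3 libraries against 3 can give. An antisense gene model that overlaps Il1a, Gm14023, had 2 to 23 counts, close to the 18 to 41 counts of Il1a, and whether strand was used in the counting is not stated.

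Il1rn encodes the interleukin-1 receptor antagonist, which occupies the receptor without signalling. Its level was 22.5, 25.2 and 24.3 CPM in normal and 4.62, 3.40 and 3.33 CPM in model, with no overlap. The log2 fold change was -2.67 ± 0.20 (adjusted p = 3.7e-05), a smaller fall than that of Il1b. The ratio of Il1b to Il1rn reads moved accordingly, from 1.38, 1.69 and 0.935 in normal to 0.225, 0.458 and 0.175 in model (exact permutation p = 0.1). The agonist transcript therefore lost more than the antagonist transcript in these libraries.

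**Figure D2:**
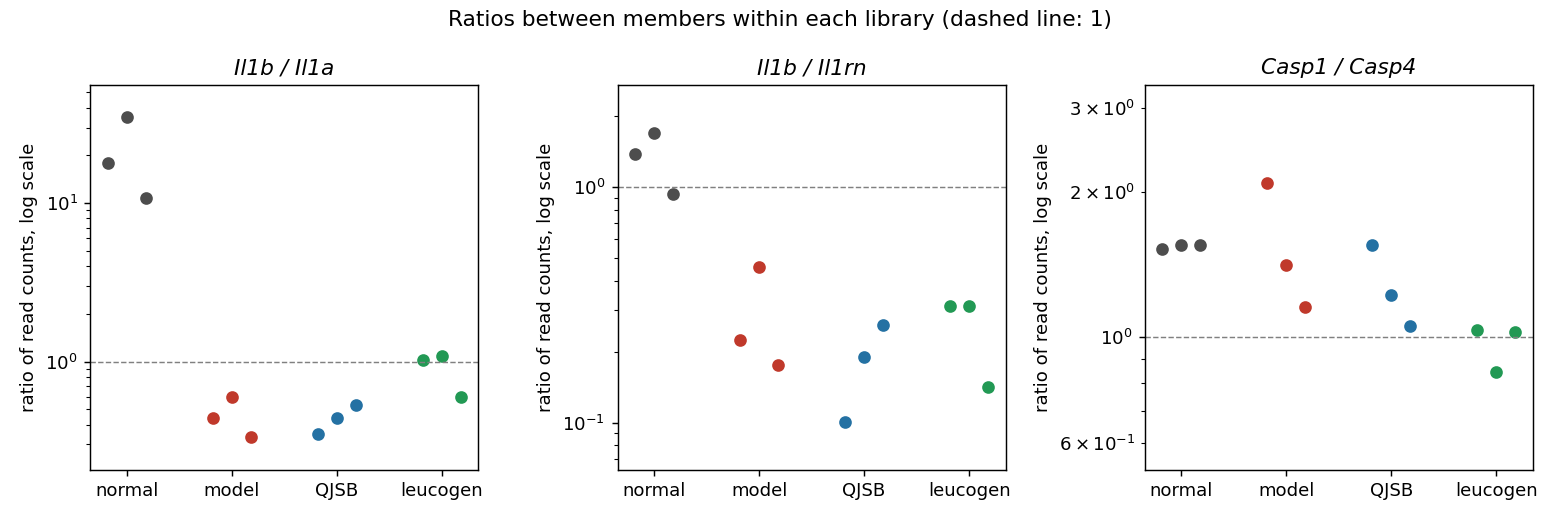
Ratio of read counts between pairs of members within each library, on a log axis with a dashed line at 1, for Il1b to Il1a, Il1b to Il1rn and Casp1 to Casp4 (points are mice, 3 per group). The ratio of Il1b to Il1a lies at 10.7 or above in normal and at 1.09 or below in the other groups, and the ratio of Casp1 to Casp4 is lowest in leucogen.

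Il18 encodes interleukin-18, which is made as a precursor in resting cells and drives interferon-γ in lymphocytes. It stood at 8.16, 10.3 and 9.07 CPM in normal and 6.99, 5.66 and 3.27 CPM in model. The model libraries were all lower, but the log2 fold change of -0.80 ± 0.29 missed the adjusted cutoff (adjusted p = 0.0545). Without model 1 it passed (log2 fold change -1.04, adjusted p = 0.0234), and DESeq2 called it in all libraries (adjusted p = 0.0402). The row of Il18 starts at 50575273 on chromosome 9 in the deposited table and at 50554827 in GENCODE M21, so reads between these starts may be missing from the counts.

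Among the sensors, Nlrp3, which responds to potassium loss and membrane damage, stood at 25.1, 26.1 and 25.8 CPM in normal. It was 19.2, 14.9 and 12.1 CPM in model, below every normal library. The log2 fold change was -0.74 ± 0.19 (adjusted p = 0.014), and the call was lost without normal 2 (-0.73, adjusted p = 0.0515) or normal 3 (-0.73, adjusted p = 0.0527). On log2(FPKM + 1) with limma it fell under the fold cutoff (-0.51, adjusted p = 0.0445). Aim2, the sensor of cytosolic DNA, was 43.6, 40.9 and 47.3 CPM in normal and 64.2, 72.0 and 46.2 CPM in model. Model 3 lay among the normal libraries, and the log2 fold change of 0.46 ± 0.18 did not pass (adjusted p = 0.0717). Aim2 passed without model 3 (0.63, adjusted p = 0.00705) and with total counts in place of TMM (0.59, adjusted p = 0.0394). Pycard, the adaptor, varied widely between mice of a group, at 34.9, 10.2 and 8.46 CPM in normal and 38.7, 22.8 and 15.9 CPM in model. Its log2 fold change of 0.53 ± 0.61 did not pass (adjusted p = 0.526), but without normal 1, the high normal library, it was 1.46 (adjusted p = 0.0267). Pycard overlaps an antisense gene model, Gm45205, which has no row in the table.

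Caspase-1 is the interleukin-1β converting enzyme. Casp1 was 49.9, 46.0 and 36.6 CPM in normal and 75.4, 108 and 64.1 CPM in model, without overlap (log2 fold change 0.90 ± 0.22, adjusted p = 0.0112). Casp4 encodes the mouse enzyme also called caspase-11, which binds bacterial lipopolysaccharide inside the cell and cleaves gasdermin D. It was 32.8, 29.6 and 23.7 CPM in normal and 36.2, 76.8 and 55.6 CPM in model (0.96 ± 0.27, adjusted p = 0.0218). Model 1 lay just above the highest normal library, and the call was lost without normal 2 (0.98, adjusted p = 0.0633), normal 3 (0.85, adjusted p = 0.0731) or model 3 (0.98, adjusted p = 0.0579). Gsdmd, which encodes the pore-forming gasdermin D, was nearly constant in normal at 48.0, 48.9 and 49.9 CPM and reached 63.1, 78.3 and 86.0 CPM in model. The change was small but well separated (0.62 ± 0.14, adjusted p = 0.00866), and it fell under the 1.5-fold cutoff without model 3 (0.53, adjusted p = 0.0175).

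Markers of the cells that could carry these transcripts moved in the same comparison. Of the 8 promyelocyte markers, 8 were called higher in model (summed 1258 to 1490 CPM in normal and 8510 to 11930 CPM in model), as were 7 of 10 monocyte markers, with 2 called lower (1522 to 1653 and 3571 to 6687 CPM). Of the 11 macrophage markers tested, 8 were called lower (566 to 648 and 251 to 408 CPM). Of the 7 dendritic cell markers tested, 3 were called lower and 1 higher (91 to 117 and 108 to 221 CPM). Of the 10 T and NK cell markers, 9 were called lower and 1 higher (91 to 116 and 109 to 136 CPM). Summed late neutrophil markers overlapped between the groups (19822 to 23599 and 5010 to 20292 CPM), with 5 of 15 called lower and 0 higher. Single markers differed in this. S100a8 (5920 to 7920 and 1730 to 8690 CPM) and S100a9 (3300 to 4680 and 1070 to 4910 CPM) gave the largest parts of these sums, and both overlapped. Cd177, Lcn2, Csf3r, Stfa2l1 and Itgb2l overlapped as well. Mmp9 did not overlap (545 to 624 and 20.8 to 142 CPM), nor did Camp, Mmp8, Padi4, Ngp, Retnlg, Cxcr2 and Ltf, all of them lower in model. All 10 mature B cell markers were called lower, and the B cell antigen gene Ms4a1 was at 0 in model 2 and model 3. The macrophage gene Marco, low in normal as well (0.506 to 1.57 CPM), was at 0 in model 1 and model 3. No other macrophage marker was at 0 in any library. The part of these shifts in the change of any member was not tested.

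**Figure D3:**
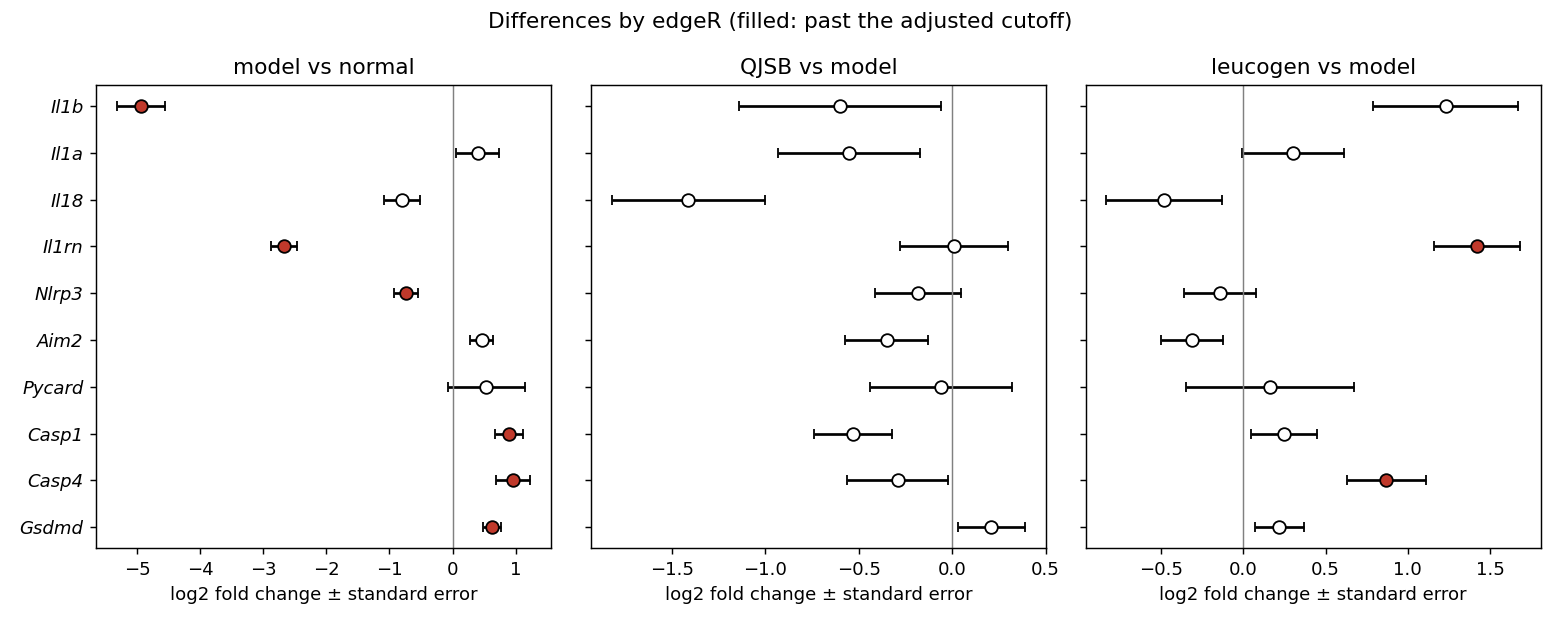
Log2 fold change of each member with its standard error from edgeR for model against normal, QJSB against model and leucogen against model (filled points pass the adjusted cutoff). Filled points number 6 in the first panel, 0 in the second and 2 in the third.

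QJSB against model asked whether the granule shifted the pathway in mice given cyclophosphamide. By edgeR 0 of the 10 members passed the adjusted cutoff, where 0% of all 14486 genes tested passed, and DESeq2 and limma on FPKM also called 0 members. The unadjusted cutoff of the study was a P under 0.05 with the same fold cutoff. Il18 alone passed it and was lower, beside 1.4% of the genes tested that were lower at that cutoff. Il18 was 6.99, 5.66 and 3.27 CPM in model and 2.97, 1.63 and 1.47 CPM in QJSB. Each QJSB library lay below each model library, although QJSB 1 and model 3 nearly met. The log2 fold change was -1.41 ± 0.41 (unadjusted P = 0.00828, adjusted p = 0.767). It was -1.15 without model 1 and -1.79 without QJSB 1, the libraries that stood apart, and neither passed the adjusted cutoff (adjusted p = 0.984 and 0.161). Counts were 56 to 121 in model and 24 to 55 in QJSB.

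Casp1 was 60.6, 56.5 and 57.2 CPM in QJSB, a narrow range below the 3 model libraries. The log2 fold change of -0.53 ± 0.21 (unadjusted P = 0.0349, adjusted p = 0.767) was under the fold cutoff. It passed the unadjusted cutoff with total counts in place of TMM (-0.61), without model 1 (-0.59) and without model 3 (-0.69), which makes 2 members past that cutoff in each case. Il1b stayed as low in QJSB as in model, at 0.38, 0.82 and 0.92 CPM, with counts of 7 to 15 (log2 fold change -0.60 ± 0.54, adjusted p = 0.812). Il1rn was 3.73, 4.31 and 3.55 CPM (0.01 ± 0.29, adjusted p = 0.996), within the range of model. Il1a was 1.08, 1.87 and 1.71 CPM, and its log2 fold change was -0.55 ± 0.38 (adjusted p = 0.768). Neither interleukin-1 cytokine nor the antagonist was separated from model by the test.

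The other members lay close to model in QJSB. Nlrp3 was 14.7, 12.6 and 14.1 CPM (log2 fold change -0.18 ± 0.23) and Aim2 was 52.3, 53.3 and 39.3 CPM (-0.35 ± 0.22). Casp4 was 39.1, 46.2 and 54.7 CPM (-0.29 ± 0.27), all within the range of the model libraries. Gsdmd was 73.5, 97.5 and 95.7 CPM (0.21 ± 0.18), and Pycard was 16.9, 22.0 and 36.6 CPM (-0.06 ± 0.38). The adjusted p of these 5 genes ran from 0.767 to 0.979. The median log2 fold change of the members was -0.32, against -0.02 for all genes tested. Late neutrophil markers were called in 0 of 15 (5010 to 20292 CPM in model and 7673 to 38862 CPM in QJSB).

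Against normal, the QJSB libraries showed 2 members higher (Casp4 and Gsdmd, beside 18% of 14817 genes) and 4 lower (Il1b, Il1rn, Il18 and Nlrp3, beside 19.9%). This comparison shares the normal libraries with model against normal, so its values are given only side by side. Il18 was 4.51-fold lower in QJSB than in normal (log2 fold change -2.17 ± 0.31, adjusted p = 0.00117), and 0 of its 3 libraries overlapped the normal range. Il1b was 45.8-fold lower (-5.52 ± 0.38, adjusted p = 4.4e-05), Il1rn 6.23-fold lower (-2.64 ± 0.16, adjusted p = 2.8e-05) and Nlrp3 1.86-fold lower (-0.90 ± 0.13, adjusted p = 0.00149). Gsdmd was 1.81-fold higher (0.86 ± 0.13, adjusted p = 0.00176). Casp4 was 1.62-fold higher (0.70 ± 0.18, adjusted p = 0.0145), and this call was lost without normal 3 (0.57, adjusted p = 0.0544) or QJSB 3 (0.57, adjusted p = 0.0451). Casp1 lay above the normal range in all 3 QJSB libraries but did not pass (0.39 ± 0.14, adjusted p = 0.0527). Pycard passed without normal 1 only (1.42, adjusted p = 0.0257).

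Leucogen against model asked the same of the reference drug. Il1rn and Casp4 were called higher, 2 of the 10 members beside 11.6% of the 14184 genes tested, and 0 members were called lower beside 11.5%. The receptor antagonist gene Il1rn was 4.62, 3.40 and 3.33 CPM in model and 9.90, 8.12 and 12.1 CPM in leucogen. The groups were clearly apart (log2 fold change 1.42 ± 0.26, adjusted p = 0.00674), and leucogen stayed below the 22.5 CPM of the lowest normal library. Casp4 was 98.9, 107 and 97.2 CPM in leucogen, above the highest model library at 76.8 CPM (0.87 ± 0.24, adjusted p = 0.0301). The Casp4 call was lost without model 3 (0.87, adjusted p = 0.095), leucogen 1 (0.89, adjusted p = 0.0777), leucogen 2 (0.83, adjusted p = 0.0788) or leucogen 3 (0.89, adjusted p = 0.0898), where between 1239 and 2728 genes in all were called in place of 3276.

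Il1b was 3.09, 2.54 and 1.71 CPM in leucogen, just above the highest model library at 1.56 CPM. Its log2 fold change of 1.23 ± 0.44 missed the adjusted cutoff (adjusted p = 0.064). It passed with at least 10 counts in every library (1.24, adjusted p = 0.0454), with all 12 libraries in one fit (1.24, adjusted p = 0.0366) and without model 2 (1.64, adjusted p = 0.0359). Il1a was 3.01, 2.32 and 2.85 CPM (0.30 ± 0.31, adjusted p = 0.509) and Il18 was 4.67, 2.83 and 3.80 CPM (-0.48 ± 0.35, adjusted p = 0.325). Neither cytokine gene was separated from model. The ratio of Il1b to Il1rn reads was 0.312, 0.312 and 0.142, overlapping that of model (exact permutation p = 0.9).

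Casp1 was 102, 90.7 and 99.0 CPM in leucogen, within the model range (0.25 ± 0.20, adjusted p = 0.376). The neighbours on chromosome 9 therefore stood at different ratios, with 1.52, 1.55 and 1.55 Casp1 reads per Casp4 read in normal and 1.03, 0.845 and 1.02 in leucogen (exact permutation p = 0.1, the smallest possible). In model the ratio was 2.09, 1.41 and 1.15, which spans the normal values. Nlrp3 at 14.3, 11.7 and 15.5 CPM, Gsdmd at 85.6, 88.6 and 86.7 CPM, Aim2 at 51.7, 41.6 and 52.2 CPM and Pycard at 21.5, 15.4 and 48.4 CPM did not pass against model (adjusted p from 0.262 to 0.841). Late neutrophil markers rose in this comparison, with 9 of 15 called higher (5010 to 20292 CPM in model and 49918 to 58990 CPM in leucogen), and 6 of 8 promyelocyte markers fell (8510 to 11930 and 4375 to 5789 CPM). The part of this shift in the rise of Il1rn and Casp4 was not tested.

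Relative to normal, leucogen mice had 3 members higher, Casp1, Casp4 and Gsdmd, beside 17.8% of 14637 genes, and 4 lower, Il1b, Il1rn, Il18 and Nlrp3, beside 19.8%. Casp4 was 3.57-fold higher (log2 fold change 1.84 ± 0.12, adjusted p = 1.5e-06) and Casp1 2.23-fold higher (1.16 ± 0.12, adjusted p = 3.4e-05). Gsdmd was 1.80-fold higher (0.85 ± 0.08, adjusted p = 2.1e-05). Il1b remained 12.8-fold lower (-3.68 ± 0.29, adjusted p = 1.4e-05), Il1rn 2.37-fold lower (-1.25 ± 0.16, adjusted p = 1.4e-04), Il18 2.41-fold lower (-1.27 ± 0.23, adjusted p = 0.00103) and Nlrp3 1.84-fold lower (-0.88 ± 0.14, adjusted p = 4.6e-04). All 7 calls held when any 1 library was left out.

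The drug groups were also set against each other at the same time and with the same cyclophosphamide. QJSB was lower than leucogen in 4 members, Il1b, Il1rn, Casp1 and Casp4, beside 11.7% of the 14266 genes tested, and 0 were higher beside 12.9%. Casp4 differed by a log2 fold change of -1.15 ± 0.16 (adjusted p = 0.00316), with QJSB at 39.1 to 54.7 CPM and leucogen at 97.2 to 107 CPM. Il1rn differed by -1.41 ± 0.24 (adjusted p = 0.0051) and Casp1 by -0.78 ± 0.12 (adjusted p = 0.00432), again without overlap of the libraries. Il1b differed by -1.83 ± 0.44 (adjusted p = 0.017), a call lost without leucogen 1 (-1.63, adjusted p = 0.0714) or leucogen 2 (-1.81, adjusted p = 0.0524). Il18 did not pass (-0.93 ± 0.37, adjusted p = 0.0923) except without QJSB 1 (-1.32, adjusted p = 0.0197), and Il1a did not pass (-0.85 ± 0.35, adjusted p = 0.097). The median over the 10 members was -0.81, against 0.03 for all genes tested. Of the late neutrophil markers 1 of 15 was called lower. Their sums did not overlap, at 7673 to 38862 CPM in QJSB and 49918 to 58990 CPM in leucogen. S100a8 (2370 to 13100 and 23600 to 25600 CPM) and S100a9 (1700 to 6320 and 11000 to 16600 CPM) gave the largest parts of these sums. Camp, Mmp8, Padi4, Retnlg and Itgb2l also lay apart. Cd177, Lcn2, Csf3r, Ngp, Mmp9, Cxcr2, Stfa2l1 and Ltf overlapped, so the gap in the sums does not hold for each marker. Of the promyelocyte markers 5 of 8 were called higher (9878 to 11540 CPM in QJSB and 4375 to 5789 CPM in leucogen). The part of these shifts in the differences of the members was not tested.

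Ordered by mean CPM, Il1b ran from normal through leucogen and model to QJSB, and the last 2 overlapped. Il1rn kept the same first 2 places, with model and QJSB not separable. Il18 ran from normal through model and leucogen to QJSB, where model overlapped leucogen and leucogen overlapped QJSB. For Casp4 the order was leucogen, model, QJSB and normal, and model and QJSB overlapped. For Gsdmd the normal group was lowest, and the other 3 groups overlapped one another. Nlrp3 was highest in normal, and again the other 3 groups overlapped. Casp1 ran from leucogen through model and QJSB to normal, and only leucogen and model overlapped. For Aim2, Il1a and Pycard every neighbouring pair of groups overlapped.

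Levels of different members can be compared only per length. On the FPKM scale of the deposited table the normal group had Casp1 highest at 29.1 ± 4.18 FPKM (SD, n = 3), then Gsdmd at 27.2 ± 0.862, Il1b at 13.5 ± 4.15, Il18 at 12.7 ± 1.52, Aim2 at 7.96 ± 0.648 and Casp4 at 5.84 ± 0.879. Below these were Nlrp3 at 4.93 ± 0.135 FPKM, Pycard at 4.14 ± 3.39, Il1rn at 2.93 ± 0.185 and Il1a at 0.848 ± 0.229. Of neighbours in this order, the libraries of Casp1 and Gsdmd, Il1b and Il18, Casp4 and Nlrp3, Nlrp3 and Pycard, and Pycard and Il1rn overlapped. Pycard also overlapped Casp4 and Aim2. In leucogen Casp4 took the third place with libraries at 18.9 to 20.7 FPKM, and Il1b was last at 1.00 ± 0.314 FPKM. By mean FPKM these places were shared by model and QJSB. Casp4 was at 12.3 ± 4.27 and 9.51 ± 1.29 FPKM there, and Il1b at 0.484 ± 0.227 and 0.292 ± 0.107 FPKM. The length behind the FPKM was 8102 bases for Il1rn and 4846 for Casp4, against 2474 and 1435 bases for their longest coding transcripts in GENCODE M21. It was 1497 bases by both for Casp1. With CPM per kilobase of the longest coding transcript, Casp4 moved from the sixth to the fourth place in normal (16.5 to 22.9) and Il1rn from the ninth to the seventh (9.71 ± 0.554). In leucogen Casp4 then came first at 70.5 ± 3.79, close to Casp1 at 64.9 ± 3.86. The order between members thus depends on the length chosen, while the length cancels where a single gene is compared between groups.

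**Figure D4:**
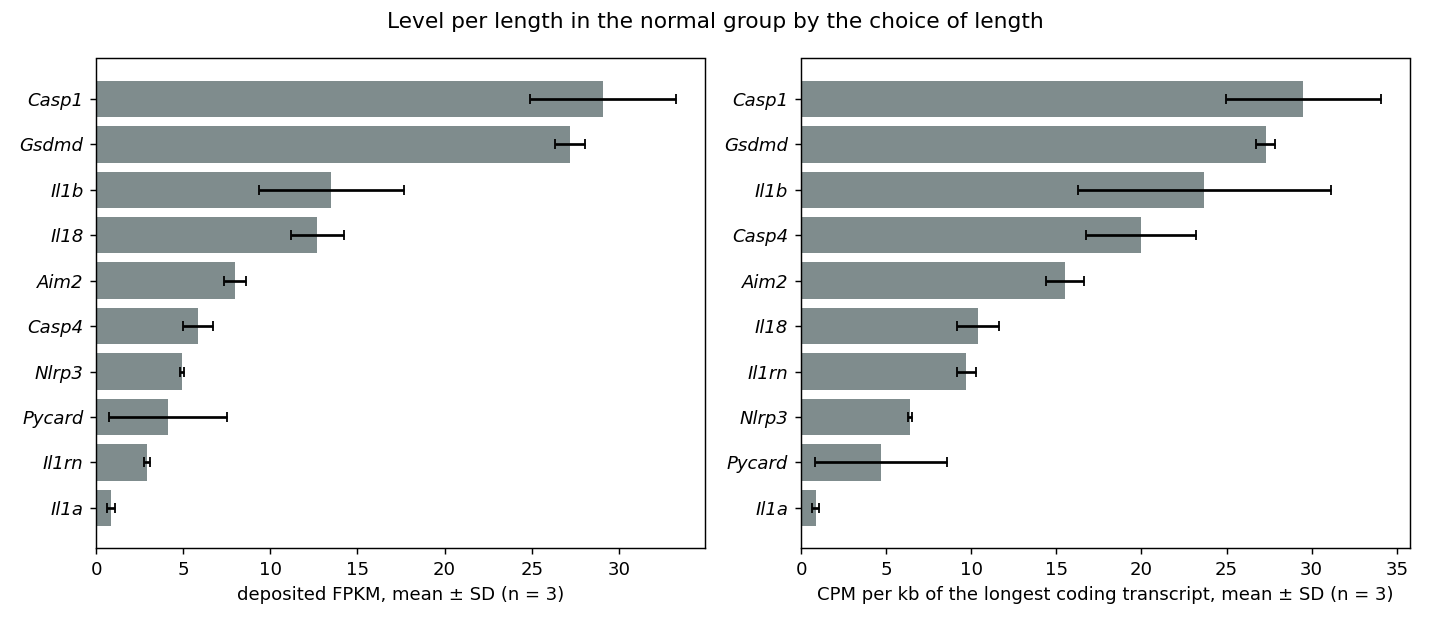
Mean level per length of the 10 members in the normal group with its SD (n = 3), as the deposited FPKM on the left and as CPM per kilobase of the longest coding transcript on the right. Casp1 and Gsdmd lead on both scales, while Casp4 is at 5.84 FPKM on the left and at 16.5 to 22.9 CPM per kilobase by library on the right.

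The rest of the pathway was read from lists of other sensors and helpers, caspases and pore effectors, ligands, receptors and antagonists, and receptor signalling. In model against normal, 9 of the 20 sensors and helpers tested were called higher and 2 lower, beside 16.1% and 19% of all genes, with a median log2 fold change of 0.69 against 0.02 for all genes. Mefv, which encodes the sensor pyrin, rose from 25.0 to 34.5 CPM in normal to 95.7 to 133 CPM in model (1.96 ± 0.18, adjusted p = 9.9e-05). Naip2, a receptor for a bacterial secretion system component that works with NLRC4, rose by 1.31 ± 0.16 (adjusted p = 3.4e-04). The Naip genes are related copies, so some reads may be split between them in an unknown way. Nlrp12, a sensor family member of myeloid cells, fell by 2.01 on the log2 scale, with an SE of 0.33 (adjusted p = 0.00253).

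Of the 10 caspases, pore effectors and inhibitors tested, 3 were called higher and 4 lower, beside the same shares of all genes. Casp12 rose by 1.70 ± 0.35 (adjusted p = 0.00551), while the protease inhibitor gene Serpinb6b fell from 12.1 ± 0.954 to 2.35 ± 0.298 CPM (adjusted p = 8.2e-05). Without normal 1 or normal 2 only 4 of these genes were called in all. Of the other ligands 2 were tested, and Il33, an alarm cytokine of stromal cells, fell from 14 to 27 counts per library in normal to 1 to 5 counts in model (log2 fold change -2.83 ± 0.53, adjusted p = 0.00339). The number called was 2 without model 1. Of the 9 receptor genes, 2 were called higher and 1 lower, beside 16.1% and 19% of all genes, and 5 were called without model 2. Il1rl1, the interleukin-33 receptor carried by mast cells, basophils and eosinophils, fell from 54.8 ± 6.78 to 7.21 ± 4.54 CPM (adjusted p = 0.00224), beside 6 of 7 eosinophil and basophil markers called lower (1320 to 1642 and 75 to 173 CPM). Il1rl2, the interleukin-36 receptor, rose from 13.2 ± 3.2 to 70.2 ± 7.1 CPM (adjusted p = 6.2e-05), and Il1r1, the signalling interleukin-1 receptor, from 12.1 ± 2.06 to 21.8 ± 4.32 CPM (adjusted p = 0.0115).

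Signalling genes downstream of the receptor numbered 3 higher and 5 lower of 21 tested, near the 16.1% and 19% of all genes. Myd88, the adaptor of the receptor family, rose from 34.1 to 40.4 CPM in normal to 62.5 to 118 CPM in model (1.11 ± 0.24, adjusted p = 0.00686). Tnfaip3, which encodes the NF-κB inhibitor A20, fell from 48.0 ± 2.43 to 16.3 ± 4.24 CPM (adjusted p = 5.9e-04). Irak1bp1 was low in both groups, at 0.551 ± 0.237 and 1.88 ± 0.5 CPM (adjusted p = 0.0128).

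**Figure D5:**
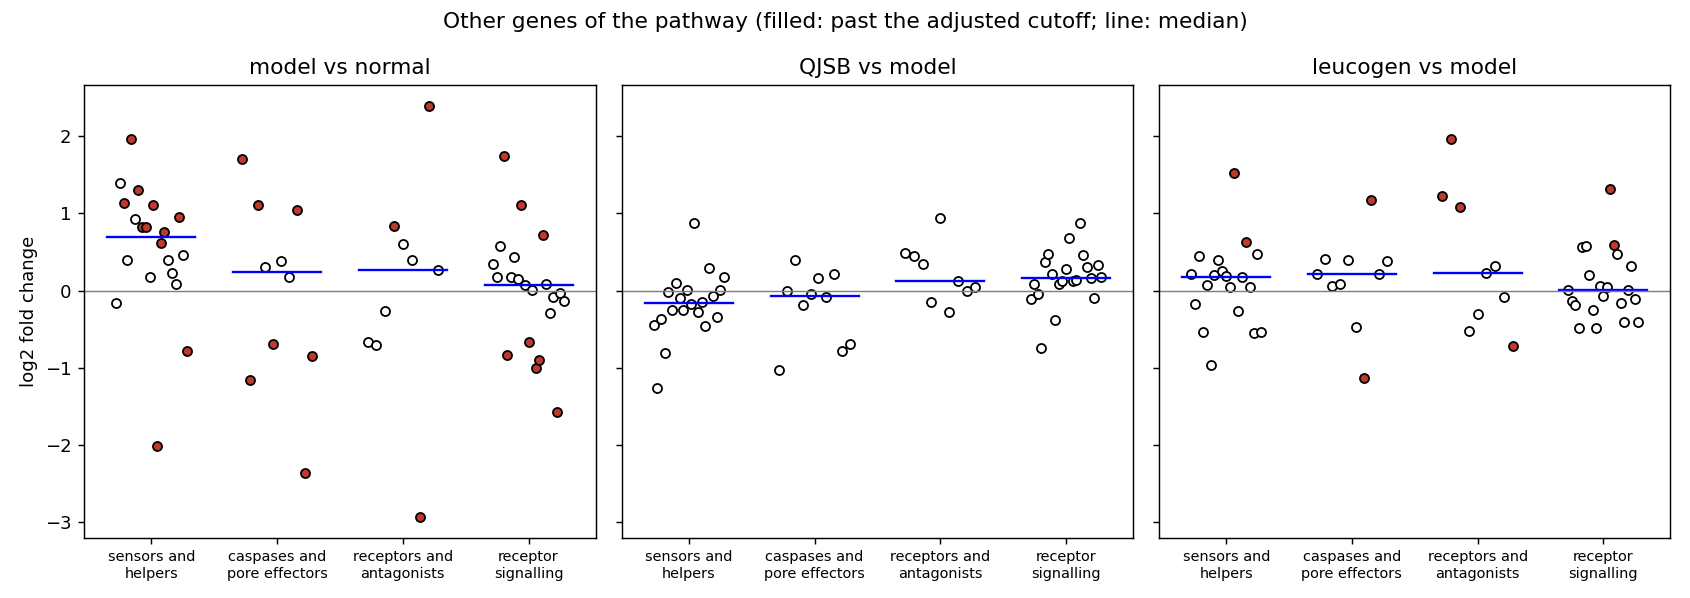
Log2 fold change of every tested gene in the lists of sensors and helpers, caspases and pore effectors, receptors and antagonists, and receptor signalling, for model against normal, QJSB against model and leucogen against model (filled points pass the adjusted cutoff, lines are medians). Filled points are frequent in the first panel, absent from the second and few in the third.

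In QJSB against model, edgeR called 0 genes in each of the 5 lists, as did DESeq2. At the unadjusted cutoff of the study, Gbp2 was lower among 20 sensors and helpers tested, and Casp12 among 10 caspases and effectors. Peli2 was higher among 21 signalling genes. The 1 ligand and the 9 receptor genes tested did not pass. Of all 14486 genes tested, 203 were lower and 243 higher at that cutoff. Gbp2, Casp12 and Peli2 are named here after their values were seen. In leucogen against model, receptor and antagonist genes had 3 called higher and 1 lower of 9, beside 11.6% and 11.5% of all genes. Il18r1 and Il18rap, the chains of the interleukin-18 receptor, rose to 58.4 ± 1.55 and 431 ± 33.1 CPM from 15.1 ± 8.27 and 206 ± 94.1 CPM (adjusted p = 0.0128 and 0.0383). Il18bp, the secreted binder that neutralises interleukin-18, rose from 11.6 ± 4.77 to 26.8 ± 0.442 CPM (adjusted p = 0.0152). Il18 itself did not pass there, so its receptor chains and its decoy moved while the cytokine transcript was not separated from model.

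Nlrp12 rose in leucogen to 39.2 ± 1.21 CPM (log2 fold change 1.53 ± 0.33, adjusted p = 0.0134) and Nod1, a sensor of bacterial cell wall fragments, by 0.63 ± 0.18 (adjusted p = 0.0299), 2 of 19 sensors and helpers, close to the 11.6% of all genes called higher. Among 10 caspases and effectors, Serpinb1a, a neutrophil protease inhibitor that restrains caspase activity, rose from 896 ± 397 to 2000 ± 314 CPM (adjusted p = 0.0249), and Ninj1, which ruptures the membrane of dying cells, fell from 10.8 ± 2.86 to 4.87 ± 1.02 CPM (adjusted p = 0.0154). Nfkbiz, a nuclear IκB protein induced by interleukin-1, rose from 32.7 ± 4.68 to 80.7 ± 2.8 CPM (adjusted p = 0.00177), and Peli1, a ubiquitin ligase of the receptor complex, from 64.3 ± 5.58 to 95.4 ± 9.25 CPM (adjusted p = 0.018), 2 of 21 signalling genes, again close to that share. Sigirr, an inhibitory receptor, was the receptor gene called lower, from 9.21 ± 0.52 to 5.53 ± 0.4 CPM (adjusted p = 0.0308). Il1f9, the only ligand tested, did not pass (1.79, adjusted p = 0.1), and 1 ligand was called without model 1. These counts were unstable when 1 library was left out. They ran from 0 to 4 for sensors and helpers, 0 to 3 for caspases and effectors, 1 to 5 for receptors and 1 to 4 for signalling genes, and each list reached its lowest value without leucogen 3.

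The genes whose log2 CPM over the 12 libraries came closest to each member, by the root-mean-square difference after centring, were then listed. For Il1b these were Fam129c (0.508), Bank1 (0.527) and Cacna1e (0.672), the first 2 being genes of B cells, on a gene that itself varied with an SD of 2.21. For Il1rn they were Hace1 (0.26), Zfp831 (0.284) and Abcg3 (0.311). Il18 was nearest to Kmo (0.23), which encodes the kynurenine hydroxylase of myeloid cells, Sirpb1b (0.274) and Actr3b (0.297), with an SD of 0.894 for Il18. For Casp1 they were Med21 (0.0972), Pla2g4a (0.132), which releases arachidonic acid, and Naip6 (0.159), and for Casp4 Mipepos (0.149), Pde4d (0.211) and Prrg1 (0.228). Among the nearest genes of Nlrp3 were Prpsap2 (0.124) and Zcchc11 (0.126), and those of Gsdmd were Fbxo18 (0.0755), Tbc1d2b (0.085) and Smarcal1 (0.0949). Aim2, with the smallest SD of the members (0.262), was nearest to Eny2 (0.104), Zcchc4 (0.132) and mt-Cytb (0.135), and Il1a to Pacrgl (0.184), Hps3 (0.2) and Wdr13 (0.217). Pycard had no close match, its nearest genes being Serpina3i (0.481), Zdhhc21 (0.492) and Slc19a2 (0.521) at an SD of 0.775.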

How the data were processed

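RNA of femoral marrow from 12 mice was depleted of ribosomal RNA and sequenced by the authors in strand-specific libraries. Per the study's methods and the submitters' processing notes, reads were filtered with Seqtk and mapped with HISAT2 to GRCm38 (mm10). The program that counted reads per gene, its use of strand and the annotation release are not given in the sources used here. The authors deposited one table with a whole-number read count per gene and library, without normalization, and an FPKM, in which the count is divided by a gene length and the library total. The FPKM times the total implied 1 fixed length per gene, and lengths of transcripts came from GENCODE M21. Column headings other than Model differ from the group names (Blank, Positive and Stilbene). By meaning and elimination they were taken to stand for normal, leucogen and QJSB. The mean normalized counts listed in the supplement matched this reading within 1% for 300 of 300 genes in each of 3 comparisons and for at most 10 of 300 under any other pairing, so the assignment rests in part on values. All columns of values were used (0 left out).

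Counts were tested with edgeR 4.0.16 in R 4.3.3 (TMM, filterByExpr, robust glmQLFit and glmQLFTest), each of 6 comparisons in a fit of its 2 groups, with Benjamini-Hochberg adjustment over all genes tested. The study used DESeq2, which was kept as an alternative (version 1.42.0), beside limma 3.58.1 on log2(FPKM + 0.1) and log2(FPKM + 1) (mean FPKM 0.1 or more), other scalings and filters, a joint fit of all 12 libraries, a replicate block and leaving out each library in turn. The fits were tested on counts simulated with the same dispersion for every gene. The spread of these libraries was not reproduced there, so that test cannot show how the fits behave at it. Each p measures the spread between 3 mice per group, and every pair of libraries of a group differed by more than counting error.

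Named genes are the 10 members, up to 3 called genes with the largest change per pathway list and comparison, and the 3 genes most like each member over the 12 libraries. Gm, Rik and clone models and gene segments were passed over. Some genes that this rule names are not reported here. The members and lists were chosen with earlier results of these data known. The same-numbered libraries of QJSB and model deviated together from their group means (correlations 0.426, 0.124 and 0.104 over 15266 genes). Pairing by these numbers was therefore admitted from the data alone, since no source states a shared batch. It entered only the alternative fit with a replicate block, and the main fits were not paired. In no other comparison were all 3 correlations over 0.1.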

Additional observations from a re-analysis of the deposited data

How the results depend on the processing

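Of 897 refitted fold changes of the members (each of the 10 genes, 6 comparisons and up to 15 alternatives), 829 kept their direction and their side of the cutoff. Another 11 passed the cutoff that the main value missed, 17 no longer passed it and 40 changed sign. Il1b and Il1rn in model against normal kept their calls throughout, between -5.29 and -3.26 and between -2.84 and -1.39. The changes of sign were all in values that had not passed, and their cause was not tested. With total counts in place of TMM, Il1rn in QJSB against model was -0.09, Pycard in leucogen against model -0.04, and in QJSB against leucogen Nlrp3 was 0.06, Gsdmd 0.07 and Aim2 0.04. On log2(FPKM + 0.1) the same 5 values were -0.05, -0.09, 0.06, 0.07 and 0.04, and on log2(FPKM + 1) they were -0.03, -0.07, 0.04, 0.07 and 0.03. Gsdmd in QJSB against leucogen was also 0.01 without a filter on low counts and 0.02 with all 12 libraries in one fit. With 1 library left out the values that changed sign ranged in QJSB against model from -0.08 to 0.18 for Il1rn, -0.32 to 0.01 for Nlrp3, -0.52 to 0.01 for Casp4 and -0.43 to 0.36 for Pycard, in leucogen against model from -0.27 to 0.06 for Nlrp3 and -0.47 to 0.59 for Pycard. They ranged in QJSB against normal from -0.32 to 0.07 for Il1a, in QJSB against leucogen from -0.15 to 0.07 for Nlrp3, -0.60 to 0.43 for Pycard, -0.07 to 0.11 for Gsdmd and -0.15 to 0.07 for Aim2. Members past the unadjusted cutoff in QJSB against model numbered 2 with total counts and from 1 to 2 with 1 library left out. Members called in leucogen against model numbered 1 on log2(FPKM + 1), where Il1rn fell under the fold cutoff (0.54), as it did in QJSB against leucogen (-0.57), and from 1 to 3 with 1 library left out. With 1 library left out, members called ranged from 4 to 7 in model against normal, 5 to 7 in QJSB against normal and 3 to 5 in QJSB against leucogen. All genes called in leucogen against model ranged from 1239 to 3953. The total counts moved the median of all genes by over 0.1 in both comparisons of the study that had calls (0.14 in model against normal and -0.22 in leucogen against model), and moved the split of calls there from 2368 higher and 2803 lower to 3026 and 2346, and from 1641 and 1635 to 1151 and 2655.

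With the replicate block, which the rule on pairing admits for QJSB against model, 0 members passed the adjusted cutoff and 1 the unadjusted one, as without it, while 18 genes in all were called in place of 0 and 830 in place of 446 passed the unadjusted cutoff. In the other comparisons the samples share only a number. The block there added Pycard in model against normal (0.72, adjusted p = 0.0423), for 7 members called, and changed no other call of a member. Depth limits Il1b most in the model and QJSB libraries, where it rests on 7 to 22 reads.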

Other observations

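For other members too the FPKM rested on a length unlike that of their longest coding transcript. The length implied by the FPKM was 5456 bases for Aim2, 2352 for Il1b, 5149 for Nlrp3 and 4236 for Pycard, each above that transcript (2839, 1356, 4021 and 3800 bases). It was 714 bases for Il18, below the 885 bases of the longest coding transcript. Pycard was the only member that spread by more than 2-fold between the lowest and the highest library in all 4 groups, at 8.46 to 34.9 CPM in normal, 15.9 to 38.7 CPM in model, 16.9 to 36.6 CPM in QJSB and 15.4 to 48.4 CPM in leucogen. The Cadm3 gene, which overlaps the annotated span of Aim2 on the other strand, had 0 to 18 counts against 550 to 1112 for Aim2.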
